A study of Homo sapiens with 12 samples.

Results

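The genes described here are the expressed zinc finger genes named ZNF plus a number in a pair of human renal carcinoma cell lines after knockdown of NUF2. A gene was a member when its name was ZNF, digits and at most 1 letter, and its mean over the 12 libraries was at least 2 FPKM (fragments per kilobase of exon, scaled to the fragments mapped in each library, so a level per length). The rule found 159 members among 556 genes with such names and 58302 genes in all, so 28.6% of the named genes were members. The members were thus chosen by their measured FPKM, and their levels are described without a test.

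Most ZNF proteins carry arrays of C2H2 zinc fingers, small folds held by 2 cysteines and 2 histidines that read DNA bases, and in a minority bind RNA or other proteins. The largest human class joins the fingers to a KRAB domain, which recruits the corepressor TRIM28 and the histone methyltransferase SETDB1, and many of its members bind transposable elements. These genes arose by tandem duplication, so near relatives often lie side by side, above all on chromosome 19, and their mRNAs are usually scarce. NUF2 itself is a subunit of the NDC80 complex, which ties kinetochores to spindle microtubules.

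The 769-P and ACHN cells, both labelled as clear cell renal cell carcinoma, were transfected for 48 h with siRNA against NUF2 (siNUF2, a mixture of siRNAs in the study's methods) or with a control siRNA (siControl). Total RNA gave 3 libraries for each of the 4 groups, and each line is a single established line, so nothing here stands for other tumors. Nothing says whether the replicates were separate cultures, and p-values then measure only the spread between these libraries. In bulk RNA, fewer cells of a kind and less RNA per cell cannot be told apart.

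NUF2 was 4.17, 3.86 and 3.01 FPKM in the siNUF2 libraries of 769-P against 19.4, 17.8 and 17.8 in siControl. In ACHN it was 2.16, 5.14 and 4.25 against 11.6, 15.0 and 14.8 FPKM. The groups did not overlap in either line. The reads recovered from the FPKM came to 29243978 to 38864492 per library, and a median of 611 to 861 reads per member stood behind its values, with 21 reads for the least covered member in any library. Of the 11 renal epithelial markers, PAX8 was at 48.3 to 134 FPKM in the group means and CA9, a hypoxia marker of clear cell carcinoma, at 0.0193 to 0.0625. Other markers of the list split by line. CDH6 had siNUF2 and siControl means of 4.17 and 6.17 FPKM for 769-P cells, but only 0.00231 and 0.000699 for ACHN cells. EPCAM was reversed, with means of 0.829 and 0.834 FPKM for 769-P cells beside 15.3 and 14.6 for ACHN cells. Between the controls, 10 markers were tested by limma without the block, and 3 were called higher in 769-P and 2 in ACHN. Of all genes 32.2% and 29.3% were called, so the markers did not stand out by these counts. PAX8 also set the ACHN replicates apart, at 57.6 and 57.1 FPKM in both libraries numbered 2 and at 144 to 199.5 in the other ACHN libraries. The 8 markers of blood, endothelial and liver cells summed to 0.0587 to 0.482 FPKM per library, and CD3E and HBB were at 0 in every library. The 12 interferon-stimulated genes summed to 172 to 493 FPKM with siNUF2 and 90.0 to 127 with siControl in 769-P, while ACHN had 223 to 298 with siNUF2 and 268 to 358 with siControl; their part in the results was not tested. The 12 proliferation genes summed to 620, 556 and 542 FPKM with siNUF2 and 599, 560 and 573 with siControl in 769-P, higher in 1 of 3 same-numbered pairs. In ACHN the 12 genes summed to 343, 419 and 407 against 264, 373 and 366 FPKM, higher in all 3 pairs. Of their log2 fold changes there, 11 of 12 were above 0, with a median of 0.21. With the block 2 were called higher and none lower in ACHN, 16.7% and 0.0% against 7.14% and 5.05% of all genes. In 769-P, 5 of the 12 log2 fold changes were above 0, with a median of -0.07. There 1 gene was called higher with the block and 3 lower, 8.33% and 25.0% against 13.6% and 13.9% of all genes. The part of the proliferation genes in the results was not tested.

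Of the 159 members, 157 had a coding sequence and 2, ZNF767P and ZNF271P, were annotated as pseudogenes. In translations of the coding sequences of GENCODE release 29, the longest finger array of a member had 33 matches to the C2H2 spacing, the median member had 8, and 6 members had none. A letter pattern for the KRAB A box was found in 37 members and not in 120; divergent forms of the box can escape it, so no match is not evidence that a protein lacks the domain. Chromosome 19 held 33 members, chromosome 7 held 23 and chromosome 16 held 16. Exons of 73 members overlapped another annotated gene, in 54 of them on the other strand. Whether counting used strand is not given in the sources used here, so reads of such pairs cannot be told apart with certainty.

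The promoters of some members carry long runs of the same letters. RefSeq promoters (build GRCh38.p14, 250 bases before the start site to 50 after it) were matched for 135 of the 159 members. Read in the direction of transcription, 14 pairs of member promoters shared an identical run of at least 20 bases. Of these, 9 joined 7 members on 5 chromosomes into one group, ZNF138, ZNF195, ZNF267, ZNF627, ZNF669, ZNF680 and ZNF92, and the KRAB pattern was found in all 7. ZNF267, ZNF680 and ZNF92 are shown because they share a run of 20 bases in nearly the same place and 2 of them were among the members that rose most in both lines. The capitals mark that run, which starts 35 bases before the start site in ZNF267 and 25 bases before it in the other pair. The run was defined from these 3 promoters, which count among the 6 of all 27305 promoters (0.022%) that hold it. No other of the 135 member promoters held it, so the count does not measure a concentration in members. ZNF267 lies at chr16:31873557-31873856 on the forward strand, ZNF680 at chr7:64563022-64563321 on the reverse strand and ZNF92 at chr7:65373605-65373904 on the forward strand.
ZNF267: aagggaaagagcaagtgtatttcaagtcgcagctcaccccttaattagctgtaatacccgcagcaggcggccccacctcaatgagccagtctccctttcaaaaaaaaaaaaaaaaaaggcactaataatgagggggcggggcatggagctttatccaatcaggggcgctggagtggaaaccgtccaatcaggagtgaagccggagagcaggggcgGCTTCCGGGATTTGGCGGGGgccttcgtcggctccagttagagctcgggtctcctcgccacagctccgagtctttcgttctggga
ZNF680: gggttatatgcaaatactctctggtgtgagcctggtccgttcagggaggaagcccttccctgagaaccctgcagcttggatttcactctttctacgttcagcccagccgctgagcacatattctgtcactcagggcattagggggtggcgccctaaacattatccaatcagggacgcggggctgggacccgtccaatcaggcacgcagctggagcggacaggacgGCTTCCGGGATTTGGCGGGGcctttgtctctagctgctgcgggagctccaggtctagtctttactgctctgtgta
ZNF92: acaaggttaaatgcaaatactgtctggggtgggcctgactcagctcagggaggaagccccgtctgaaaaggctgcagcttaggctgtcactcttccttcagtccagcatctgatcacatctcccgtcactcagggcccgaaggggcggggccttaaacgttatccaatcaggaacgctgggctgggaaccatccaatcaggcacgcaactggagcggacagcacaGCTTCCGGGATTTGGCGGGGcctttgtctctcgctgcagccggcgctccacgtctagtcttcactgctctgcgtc

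All 3 promoters also held CCAAT, the core of the NFY box, and CCGGAAG, an ETS motif whose reverse complement lies within the shared run. ZNF267 and ZNF680 rose in both lines, as described next, whereas ZNF92, singled out after its values were seen, was 2.40, 3.53 and 3.24 FPKM with siNUF2 and 2.54, 3.69 and 3.53 with siControl in 769-P. The log2 fold changes of ZNF92 were -0.08 in 769-P and 0.31 in ACHN (adjusted p = 0.39 and 0.178 by limma with the replicate block). ZNF92 was lower in the 3 same-numbered pairs of 769-P and higher in those of ACHN. Over the 7 members of the group the median log2 fold change was 0.09 in 769-P and 0.31 in ACHN, with 4 and 6 of the 7 above 0.

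Promoters of the 3 members with the largest rise in 769-P are shown for their contrast in base composition. Capitals mark the motifs found on either strand, among GGGCGG (the GC box of SP and KLF factors), CCAAT (NFY), TATAAA (bound by TBP), CCGGAAG (ETS), GCGCATG (NRF1), AAGATGG (YY1), TTCCCGC (E2F), ACTACAA (ZNF143), TCTCGCG (BANP), TGACGTC (CREB) and CACGTG (E-box). ZNF664 lies at chr12:123972965-123973264 on the forward strand, ZNF317 at chr19:9140147-9140446 on the forward strand and ZNF629 at chr16:30787156-30787455 on the reverse strand. The RefSeq start site of ZNF664 lies inside the GENCODE gene rather than at its first base.
ZNF664: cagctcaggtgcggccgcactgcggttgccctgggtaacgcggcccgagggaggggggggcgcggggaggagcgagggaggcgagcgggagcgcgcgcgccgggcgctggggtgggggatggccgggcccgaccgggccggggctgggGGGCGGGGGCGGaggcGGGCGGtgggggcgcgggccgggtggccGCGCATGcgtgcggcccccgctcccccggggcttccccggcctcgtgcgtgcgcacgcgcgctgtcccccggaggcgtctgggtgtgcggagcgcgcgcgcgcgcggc
ZNF317: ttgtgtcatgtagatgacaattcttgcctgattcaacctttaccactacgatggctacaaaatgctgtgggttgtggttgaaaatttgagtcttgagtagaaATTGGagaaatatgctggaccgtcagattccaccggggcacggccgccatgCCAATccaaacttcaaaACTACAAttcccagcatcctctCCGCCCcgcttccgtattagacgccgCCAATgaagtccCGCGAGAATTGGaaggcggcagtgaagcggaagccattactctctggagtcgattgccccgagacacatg
ZNF629: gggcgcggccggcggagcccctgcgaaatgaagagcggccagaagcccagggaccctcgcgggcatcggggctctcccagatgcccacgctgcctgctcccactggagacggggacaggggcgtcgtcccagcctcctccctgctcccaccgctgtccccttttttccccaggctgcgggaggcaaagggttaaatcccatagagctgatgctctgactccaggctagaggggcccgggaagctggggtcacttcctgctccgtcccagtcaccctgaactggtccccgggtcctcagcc

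The promoter of ZNF664 was 84.3% G or C with 51 CG pairs, 3 GC boxes and an NRF1 match. That of ZNF317 was 50% G or C and held 4 matches to CCAAT on either strand, with a ZNF143 match 80 bases and a GC box 58 bases before the start site. In the promoter of ZNF629, 68.0% G or C, none of the 11 motifs was found. Over all member promoters the median G or C content was 64.3%, against 66.0% for the 7701 promoters of genes with a mean of at least 2 FPKM. CCGGAAG was found in 35.6% of member promoters, 21.0% of those of expressed genes and 10.7% of all 27305. ACTACAA, the letters of the site read by ZNF143, itself a member, was in 9.63%, 4.21% and 2.95%, and TATAAA in 2.22%, 4.84% and 12%. GGGCGG was about as frequent in members as in expressed genes (72.6% and 72.9%). The letters of a motif are a description of the sequence and not evidence of a bound factor.

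The members were mostly at low levels. The median member had a mean of 4.10 FPKM, against 8.38 over the 10560 genes with a mean of at least 2 FPKM, and 96 members were under 5 and 21 above 10. The 5 highest were ZNF664 (27.2 FPKM), ZNF768 (26.4), ZNF622 (19.7), ZNF282 (19.1) and ZNF146 (18.6). ZNF622 matures the large ribosomal subunit, and ZNF146 consists almost only of fingers. The last members inside the limit were ZNF45 (2.01 FPKM), ZNF436 (2.01) and ZNF680 (2.01), and the first genes outside it were ZNF22 (1.94), ZNF79 (1.94) and ZNF823 (1.92 in the mean of the 12 libraries). In the means of the single lines, 130 members reached 2 FPKM in both lines, 14 in 769-P alone and 15 in ACHN alone. The replicate spread of the members was near that of other genes, with a median SD of 0.10 to 0.17 on the log2 scale within the 4 groups, against 0.13 to 0.20 for the 12930 genes tested in both lines.

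Knockdown of NUF2 was followed by higher levels of more ZNF genes than lower levels in both lines. The siNUF2 libraries entered the mean that defined members. A gene near the limit could thus become a member because it rose, or miss the limit because it fell. This tilts the counts of members toward higher, also those of the classes and of both lines below. They were not repeated with members chosen from siControl libraries alone. In 769-P cells, 15 of the 158 members tested rose and 6 fell (limma on log2(FPKM + 0.1), adjusted p under 0.05 over all genes tested), where 5.26% of all 14155 genes rose and 4.71% fell. With the replicate number as a block, 40 rose and 12 fell, against 13.6% and 13.9% of all genes. As shares of the members these were 9.49% higher and 3.8% lower without the block, and 25.3% and 7.59% with it. The median log2 fold change was 0.05 for members and -0.01 for all genes. The first counts depended on single libraries. Without siNUF2 replicate 1, 2 or 3 they were 9, 5 and 2 higher and 3, 2 and 1 lower, and without siControl replicate 1, 2 or 3 they were 13, 5 and 7 higher and 2, 1 and 1 lower. In one fit of all 12 libraries 11 rose and 3 fell, against 2.53% and 1.7% of 16564 genes.

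In ACHN cells no member passed without the block (limma, 158 tested), and 0.0% of all 15116 genes passed. At an unadjusted p under 0.05, 25 members were higher and 4 lower in ACHN, against 777 and 461 of all 15116 genes. NUF2 itself did not pass there without the block (adjusted p = 0.224), and passed with it (adjusted p = 0.0123). With the block, 29 members rose and 5 fell, 18.4% and 3.16% of those tested, against 7.14% and 5.05% of all genes. By limma-voom on the recovered reads, an alternative added after seeing the data, 34 rose and 11 fell with the block, 21.5% and 6.96% of members against 11.2% and 10.5% of all genes. In 769-P that fit gave 53 and 22, 33.5% and 13.9% against 17.9% and 18.3%. In one fit of all 12 libraries 6 rose and none fell, against 0.833% and 0.199% of all genes. The replicate numbers were taken as pairs of libraries within a line, so counts are given from both fits, and a p of a single member given as by limma, with no word on the block, is without it. All 21 members called in 769-P without the block were also called with it.

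Counted without any model, 47 members were higher in all siNUF2 libraries of 769-P than in all its siControl libraries and 17 lower, 29.7% and 10.8% of members against 16.0% and 17.3% of all genes. In ACHN 28 were higher and 7 lower, 17.7% and 4.43% against 7.86% and 6.44%. Among the 157 members tested in both lines, 51 were higher with siNUF2 in all 6 same-numbered pairs of libraries and 19 lower, 32.5% and 12.1%, against 17.0% and 17.9% of the 12930 genes tested in both lines. An exact permutation test of 3 libraries against 3 cannot give a two-sided p below 0.1, so single members rest on limma.

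**Figure D1:**
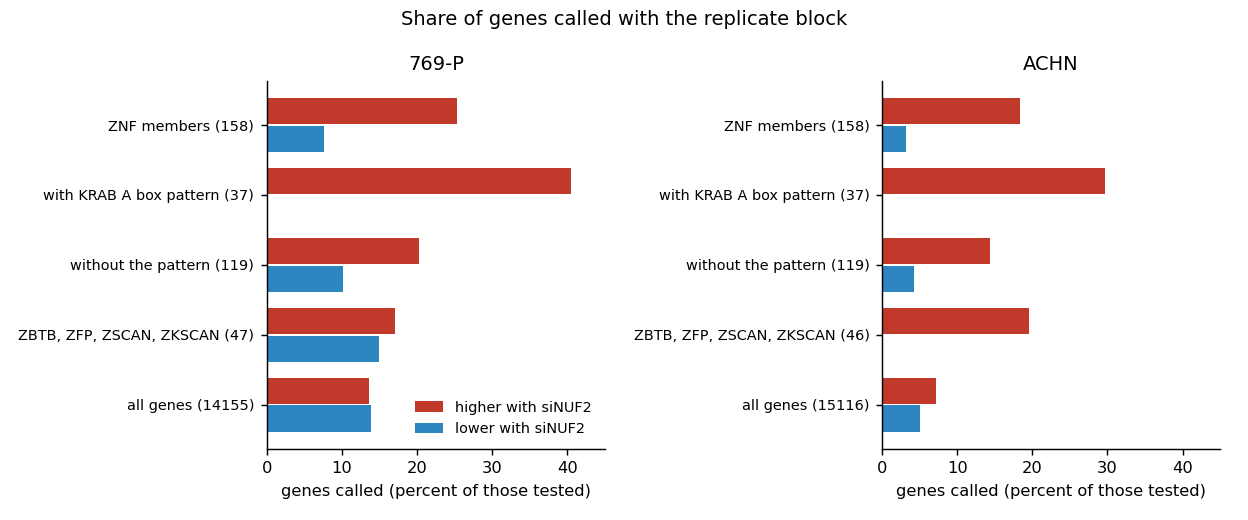
Share of genes called with the replicate block (percent of those tested, bars from 0) with siNUF2 against siControl in 769-P and ACHN, for the ZNF members, members with and without the KRAB A box pattern, the expressed ZBTB, ZFP, ZSCAN and ZKSCAN genes, and all genes; numbers tested stand in brackets. The members' bars for higher levels reach 25.3% and 18.4%, against 13.6% and 7.14% for all genes, and no member with the pattern was called lower in either line.

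The members with the KRAB pattern stood on the higher side. In 769-P, 15 of 37 rose and none fell with the block (5 and 0 without it), and 30 of the 37 log2 fold changes were above 0, with a median of 0.21. These calls with the block were 40.5% and 0.0% of the class, against 13.6% and 13.9% of all genes, of which 6897 of 14155 were above 0. In ACHN, 11 rose and none fell with the block, 32 of 37 were above 0 and the median was 0.22, which set 29.7% and 0.0% beside 7.14% and 5.05% of all genes, of which 7745 of 15116 were above 0. Of the members without the pattern, 24 rose and 12 fell among 119 tested in 769-P and 17 rose and 5 fell in ACHN with the block, with medians of 0.00 and 0.02 (20.2% and 10.1% in 769-P, 14.3% and 4.2% in ACHN). The difference between these classes was not tested. The counts that follow are with the block and stand beside the same shares of all genes, 13.6% higher and 13.9% lower in 769-P and 7.14% and 5.05% in ACHN. By the number of finger matches, 3 of 32 members with 0 to 3 fingers rose and 5 fell in 769-P, against 20 and 2 of 68 with 4 to 9 and 16 and 5 of 56 with 10 or more (9.38% and 15.6%, 29.4% and 2.94%, 28.6% and 8.93%). Of the 33 members on chromosome 19, 12 rose and 1 fell in 769-P and 6 rose and none fell in ACHN, and of the 125 tested elsewhere 28 rose and 11 fell in 769-P and 23 and 5 in ACHN. Among the 86 members that share no exon with another annotated gene, 23 rose and 6 fell in 769-P and 16 and 4 in ACHN. Of the 47 expressed relatives with other names (28 ZBTB, 8 ZFP, 7 ZSCAN and 4 ZKSCAN genes), 8 rose and 7 fell in 769-P, and of 46 tested in ACHN 9 rose and none fell. In 769-P their 17.0% and 14.9% lay near the shares of all genes, and in ACHN they were 19.6% and 0.0%, with medians of -0.02 and 0.06.

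With the block, 22 members rose in both lines and 4 fell in both, of the 157 tested in both, and none moved in opposite directions. These were 14.0% and 2.55% of the members, against 5.27% and 3.3% of the 12930 genes. Of the 22, 9 had the KRAB pattern, 12 had not and 1 was the pseudogene ZNF271P. On the log2 scale the 22 rose by 0.20 to 1.23 in 769-P and by 0.29 to 1.30 in ACHN. In 769-P 13 of them also passed without the block, and in ACHN their adjusted p by limma without it was 0.11 to 0.873. The lines share no library, and the log2 fold changes of the 157 members correlated at 0.765 by Pearson and 0.752 by Spearman, against 0.473 and 0.539 over all 12930 genes. Genes are not independent replicates, and these coefficients describe the 12 libraries only. The 12930 genes include genes with a mean below 2 FPKM, so they are not matched to the members in level. The same holds for the shares of all genes given beside the members' knockdown counts.

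**Figure D2:**
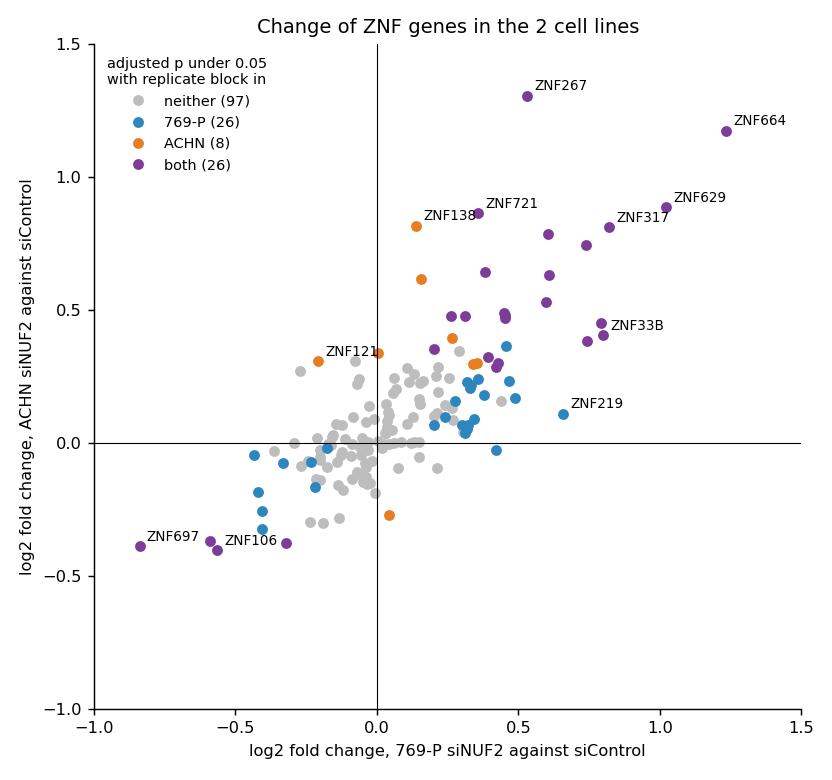
log2 fold change with siNUF2 against siControl in 769-P (x axis) and ACHN (y axis) for the 157 ZNF members tested in both lines, colored by the line in which the member was called with the replicate block. The 26 members called in both lines lie in the upper right (22) or lower left (4), and ZNF664 and ZNF267 lie farthest out.

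ZNF664 (ENSG00000179195), a 9-finger gene at chr12:123971845-124015439, was the highest member and the one with the largest change in 769-P. It was 29.1, 31.4 and 30.6 FPKM with siNUF2 and 13.0, 14.2 and 11.7 with siControl in 769-P. In ACHN it was 34.7, 48.6 and 50.6 against 12.1, 28.4 and 22.2 FPKM. The groups did not overlap in either line, though the ACHN controls were spread more than 2-fold. The log2 fold change was 1.23 (SE 0.09, adjusted p = 0.00271 by limma without the block) in 769-P and 1.17 (SE 0.14, adjusted p = 0.0182 by limma with the block) in ACHN. Its exons overlap RFLNA and AC068790.8 on the same strand, with means of 0.0394 and 0.0047 FPKM, and CCDC92 on the other, with 6.42.

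ZNF629 (ENSG00000102870, chr16:30778449-30787202, 19 fingers) was 8.79, 11.6 and 9.69 FPKM with siNUF2 and 4.25, 5.86 and 4.72 with siControl in 769-P. In ACHN it was 10.5, 11.1 and 11.9 against 5.85, 6.19 and 6.13 FPKM. All siNUF2 libraries were above all controls, with log2 fold changes of 1.02 (SE 0.14, adjusted p = 0.0117, limma without the block) and 0.89 (SE 0.05, adjusted p = 0.0116, limma with the block). ZNF317 (ENSG00000130803, chr19:9140380-9163424), a KRAB gene with 13 fingers, was 5.61, 6.39 and 6.16 against 3.14, 4.06 and 3.10 FPKM in 769-P. In ACHN it was 9.66, 8.04 and 8.66 against 6.05, 4.52 and 4.61 FPKM. Its log2 fold changes of 0.82 and 0.81 were nearly equal (adjusted p = 0.0127 without the block and 0.0118 with it).

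ZNF267 (ENSG00000185947, chr16:31873758-31917357), a KRAB gene with 14 fingers, had the largest change in ACHN. It was 5.42, 3.62 and 5.71 FPKM with siNUF2 and 1.84, 1.73 and 2.21 with siControl there. In 769-P it was 1.64, 1.98 and 2.12 against 1.18, 1.16 and 1.59 FPKM. The groups did not overlap in either line, and the log2 fold changes were 1.30 (SE 0.11) in ACHN and 0.53 (SE 0.11) in 769-P (adjusted p = 0.0123 and 0.0251, limma with the block). ZNF354A, another KRAB gene, was 3.08, 3.41 and 3.27 against 1.61, 2.03 and 2.17 FPKM in 769-P, and 2.50, 2.36 and 2.47 against 1.31, 1.46 and 1.55 in ACHN, a log2 fold change of 0.74 in each. ZNF354A has a close relative, ZNF354B, among the members, and how reads were shared between them is not stated. ZNF680, the KRAB gene whose promoter is shown above, was 2.12, 2.03 and 2.25 against 1.44, 1.35 and 1.34 FPKM in 769-P and 2.74, 2.87 and 3.02 against 1.35, 2.04 and 1.61 in ACHN, with log2 fold changes of 0.61 and 0.79. The siControl libraries of ZNF267, ZNF354A and ZNF680 averaged below the limit of 2 FPKM. These genes are members only through their siNUF2 libraries, so the rule itself favored their rise.

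Further members that rose most in 769-P were ZNF33B, ZNF271P and ZNF618. ZNF33B, a KRAB gene with a near copy in ZNF33A, went from 2.16, 2.70 and 2.80 to 3.88, 4.62 and 4.93 FPKM (log2 fold change 0.80, adjusted p = 0.0167 by limma). ZNF271P rose by 0.79 and ZNF618, a binding partner of the hydroxymethylcytosine reader UHRF2, by 0.74 on the log2 scale in 769-P (adjusted p = 0.0129 and 0.0323 by limma). In ACHN these 3 rose by 0.41, 0.45 and 0.38 with the block. The KRAB genes ZNF721 and ZNF138 were among the members with the largest rise in ACHN. ZNF721 was 2.72, 2.84 and 3.02 against 1.35, 1.82 and 1.5 FPKM there and ZNF138 was 3.13, 3.13 and 3.21 against 1.42, 2.38 and 1.64, log2 fold changes of 0.86 and 0.82 (adjusted p = 0.0186 and 0.0367 with the block). In 769-P the log2 fold change was 0.36 for ZNF721, called with the block, and 0.14 for ZNF138, not called. The interaction test by limma on log2(FPKM + 0.1) passed for neither gene, with or without the block. By limma-voom with the block it passed for ZNF721 (adjusted p = 0.0485).

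**Figure D3:**
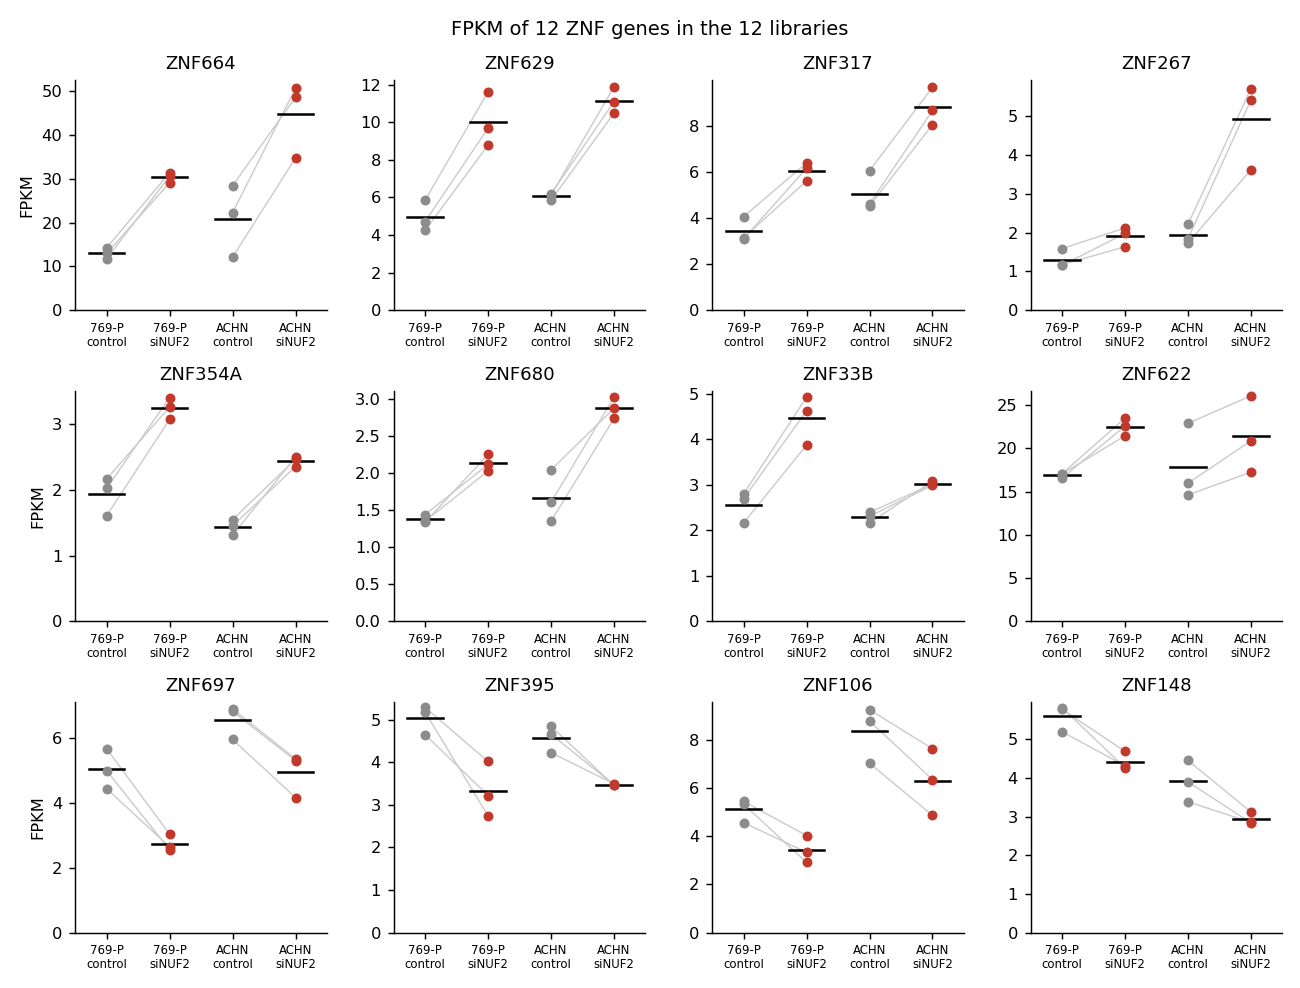
FPKM of 12 ZNF members in each of the 12 libraries (gray, siControl; red, siNUF2; bars, group means, n = 3; thin lines join libraries with the same replicate number). The upper 8 genes are higher with siNUF2 in every pair of both lines and the lower 4 are lower in every pair.

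The members that fell were fewer and their changes smaller. ZNF697 (ENSG00000143067, chr1:119619422-119647773, 11 fingers) was 3.04, 2.65 and 2.56 FPKM with siNUF2 and 5.68, 4.45 and 5.0 with siControl in 769-P. In ACHN it was 4.17, 5.37 and 5.32 against 5.97, 6.91 and 6.83 FPKM. The groups did not overlap in either line, and it fell by 0.84 in 769-P (SE 0.12, adjusted p = 0.0127 by limma) and by 0.39 in ACHN (SE 0.06, adjusted p = 0.0245 with the block) on the log2 scale. ZNF395, a factor induced by hypoxia, was 3.22, 4.02 and 2.74 against 4.65, 5.29 and 5.18 FPKM in 769-P and 3.5, 3.47 and 3.46 against 4.23, 4.66 and 4.85 in ACHN. Its exons overlap FBXO16 on the same strand. It fell by 0.59 and 0.37 (adjusted p = 0.0446 without the block in 769-P and 0.0377 with it in ACHN). ZNF106, an RNA-binding protein, was 4.03, 3.33 and 2.91 against 5.45, 4.57 and 5.33 FPKM in 769-P and fell by 0.56 (adjusted p = 0.0481 by limma). In ACHN its siNUF2 values of 4.86, 7.63 and 6.35 FPKM overlapped the 7.03, 9.26 and 8.78 of the controls, and it was lower in each pair and fell by 0.40 with the block.

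ZNF148, which binds GC-rich promoters, completed the 4 members lower in both lines, with log2 fold changes of -0.32 and -0.38 (adjusted p = 0.021 and 0.0416 with the block). ZNF580, ZNF511 and ZNF330, a nucleolar protein, fell in 769-P by 0.42, 0.40 and 0.33 on the log2 scale (adjusted p = 0.032, 0.0251 and 0.0386 by limma). In ACHN their log2 fold changes were -0.18, -0.26 and -0.07, not called with or without the block. Exons of ZNF580 overlap ZNF581 and CCDC106, and those of ZNF511 overlap a read-through with PRAP1 on the same strand and TUBGCP2 on the other. In ACHN, ZNF385A, an RNA-binding protein of the p53 pathway, was 9.36, 14.0 and 11.6 against 12, 15.5 and 15.0 FPKM and fell by 0.27 with the block (adjusted p = 0.0494).

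The RNA, translation and mitosis list has 11 genes, of which 10 were tested in each line. ZNF622 was 21.4, 23.5 and 22.6 FPKM with siNUF2 and 17.1, 17.1 and 16.6 with siControl in 769-P, a log2 fold change of 0.42 (adjusted p = 0.0138 by limma), and rose by 0.29 in ACHN with the block, where the groups overlapped (26.1, 17.2 and 20.9 against 22.9, 14.6 and 16 FPKM). ZNF622 was the only gene of the list to rise in either line, and ZNF106 and, in ACHN, ZNF385A fell. With the block these were 1 higher and 1 lower of 10 in 769-P, against 13.6% and 13.9% of all genes. In ACHN they were 1 higher and 2 lower of 10, against 7.14% and 5.05%. With 10 genes such counts cannot set the list apart from all genes. ZNF207, a spindle and kinetochore protein that binds BUB3, was 10.8, 10.1 and 10.6 against 10.8, 9.97 and 10.2 FPKM in 769-P, a log2 fold change of 0.03 (SE 0.07), and of 0.06 (SE 0.09) in ACHN. ZNF598, the ubiquitin ligase that marks collided ribosomes, had log2 fold changes of 0.06 and 0.19, and the RNA-binding ZNF326, ZNF346 and ZNF638 had -0.13, -0.16 and -0.04 in 769-P, none of them called in either line.

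The list of chromatin and transcription regulators without KRAB has 19 genes, with 18 tested in 769-P and 16 in ACHN, and none passed without the block. With it, ZNF76 rose in 769-P (log2 fold change 0.49, adjusted p = 0.0124), and ZNF148, ZNF335 and ZNF292 fell by 0.32, 0.23 and 0.41. In ACHN ZNF512B rose by 0.30 and ZNF148 fell. As shares of those tested, 5.56% rose and 16.7% fell in 769-P, against 13.6% and 13.9% of all genes. In ACHN 6.25% rose and 6.25% fell, against 7.14% and 5.05%. ZNF143, which shares its DNA site with ZNF76 and sits at chromatin loop anchors, had log2 fold changes of -0.03 and 0.14, ZNF217, a CoREST partner, 0.15 and 0.23, and ZNF281, a MYC partner, 0.16 and 0.23, none of them called. ZNF592, ZNF687 and ZNF532 form a complex with ZMYND8, and the log2 fold changes in 769-P were 0.05 for ZNF592 and -0.07 for ZNF687, with 0.05 and -0.12 in ACHN; none was called.

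Of the 8 KRAB genes listed for their known repressor roles, 6 were tested in each knockdown comparison and only ZNF274 was a member, since the others were below 2 FPKM. All 6 log2 fold changes were above 0 in both lines, with medians of 0.10 in 769-P and 0.13 in ACHN. ZNF274, which brings SETDB1 to the ends of other ZNF genes, was 4.62, 4.99 and 4.65 against 3.78, 4.02 and 3.72 FPKM in 769-P and passed with the block (log2 fold change 0.31, adjusted p = 0.0175). In ACHN it was 2.99, 3.67 and 4.32 against 3.38, 3.47 and 3.89 FPKM, and the groups overlapped.

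Of 24 KRAB cofactors tested, 5 rose and 2 fell in 769-P without the block, 6 and 4 with it, and 5 rose and none fell in ACHN with it. As shares these were 20.8% and 8.33% without the block, against 5.26% and 4.71% of all genes, and with it 25.0% and 16.7% in 769-P, against 13.6% and 13.9%, and 20.8% and 0.0% in ACHN, against 7.14% and 5.05%. TRIM28, the corepressor that KRAB binds, was at 112 FPKM with siNUF2 and 119 with siControl in 769-P, and at 86.0 and 85.2 in ACHN. Its log2 fold change was -0.08 (SE 0.12) and 0.04 (SE 0.15), and that of SETDB1 was -0.03 (SE 0.08) and -0.04 (SE 0.09). The cofactors named next were chosen after their values were seen. HDAC1, a histone deacetylase, rose in 769-P from a mean of 56.8 to one of 84.7 FPKM, while ACHN went from 25.1 to 35.1, log2 fold changes of 0.59 (adjusted p = 0.00532 by limma) and 0.51 (adjusted p = 0.0166 with the block). RBBP4, CBX1 and FAM208A (TASOR of the HUSH complex) also rose in both lines with the block, by 0.32, 0.19 and 0.51 in 769-P and, in ACHN, by 0.34, 0.33 and 0.36. The heterochromatin proteins CBX5 and CBX3 fell in 769-P by 0.37 and 0.32.

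No member's response differed between the lines at an adjusted p under 0.05 in the interaction test, with or without the block (159 tested), where 0.0% of the 16564 genes passed without it, and 0.875% passed with a positive difference and 0.64% with a negative one with it. At an unadjusted p under 0.05 the difference (769-P minus ACHN) was positive for 2 members and negative for 7 without the block, and positive for 11 and negative for 16 with it. Of all 16564 genes it was positive for 362 and negative for 414 without the block, and 1472 and 1828 with it. A negative difference can be a larger rise in ACHN or a larger fall in 769-P. By limma-voom with the block, an alternative added after seeing the data, 4 passed with a positive and 6 with a negative difference, 2.52% and 3.77% of members against 3.15% and 2.64% of all genes. The 4 lowest p-values by limma with the block were those of ZNF121 (difference of log2 fold changes, 769-P minus ACHN, -0.52, SE 0.09, adjusted p = 0.0506), ZNF697 (-0.46, adjusted p = 0.0656), ZNF219 (0.54, adjusted p = 0.0713) and ZNF267 (-0.78, adjusted p = 0.0739). These 4 were among those that passed by limma-voom with the block (adjusted p = 0.00739, 0.014, 0.0104 and 0.0158). ZNF219, a partner of SOX9 in cartilage, was 3.01, 3.06 and 3.56 against 2.09, 2.03 and 1.90 FPKM in 769-P, where it rose by 0.66 (adjusted p = 0.0149 by limma). In ACHN it was 9.86, 11.0 and 10.8 against 9.44, 10.7 and 9.55 FPKM, a log2 fold change of 0.11 (SE 0.10). Its exons overlap ARHGEF40 and TMEM253 on the other strand.

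Between the control libraries of the lines more members were called than with knockdown. Of 159 members, 41 were higher in 769-P and 50 higher in ACHN (limma without the block, adjusted p under 0.05), 25.8% and 31.4%, against 32.2% and 29.3% of all 15376 genes. The median log2 difference (769-P minus ACHN) was 0.01 for members and 0.04 for all genes, so as a group the members lay near the background. With the block, 39 and 46 were called, against 31.0% and 28.4% of all genes. Without any model, 45 members were higher in every 769-P control and 56 in every ACHN control, against 34.5% and 33.8%. Members that reached the limit through a single line had to differ in level between the lines, so their differences are described below without a test. Of the 130 members at 2 FPKM or more in both line means, 30 were higher in 769-P and 38 in ACHN, 23.1% and 29.2%. This comparison uses the control libraries of both knockdown comparisons.

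ZNF532 (ENSG00000074657, chr18:58862600-58986480), a member through 769-P alone, had the largest difference. It was 5.37, 5.91 and 5.63 FPKM in 769-P controls and 0.056, 0.141 and 0.124 in ACHN controls, a log2 difference of 4.84. Its partners ZNF592 and ZNF687 differed by 0.85 and -0.28 (adjusted p = 0.00233 and 0.0365). At the other end, ZNF853 (ENSG00000236609, chr7:6615617-6624290), a member through ACHN alone, was 0.22, 0.259 and 0.272 FPKM in 769-P and 5.07, 6.60 and 6.15 in ACHN, a log2 difference of -4.07. Because of the pseudocount of 0.1, both values understate the ratio of the levels. ZNF532 was too low for the knockdown test in ACHN and ZNF853 in 769-P.

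Higher in 769-P were also ZNF232 (6.10, 7.98 and 5.60 against 0.969, 1.08 and 1.30 FPKM, log2 difference 2.48), ZNF467 (2.27), ZNF783 (2.03), ZNF770 (1.42) and ZNF367 (1.37). Only the last pair reached 2 FPKM in both lines, with adjusted p of 0.000297 and 0.000856 by limma. Higher in ACHN were ZNF219 (log2 difference -2.21), ZNF185 (-2.13), ZNF703 (-1.95), ZNF862 (-1.84) and ZNF319 (-1.78). Of these ZNF219 and ZNF319 reached 2 FPKM in both lines, with adjusted p of 1.18e-05 and 0.000981 by limma. Neither ZNF185 nor ZNF703 had a match to the C2H2 spacing used here, which does not show that they lack zinc fingers. ZNF185 is a LIM protein of the actin cytoskeleton and ZNF703 a corepressor amplified in breast cancers. Their ACHN controls varied, ZNF185 with 1.75, 4.13 and 3.72 FPKM and ZNF703 with 7.69, 4.83 and 4.41, but stayed above every 769-P control (0.494 to 0.758 and 1.23 to 1.42 FPKM).

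**Figure D4:**
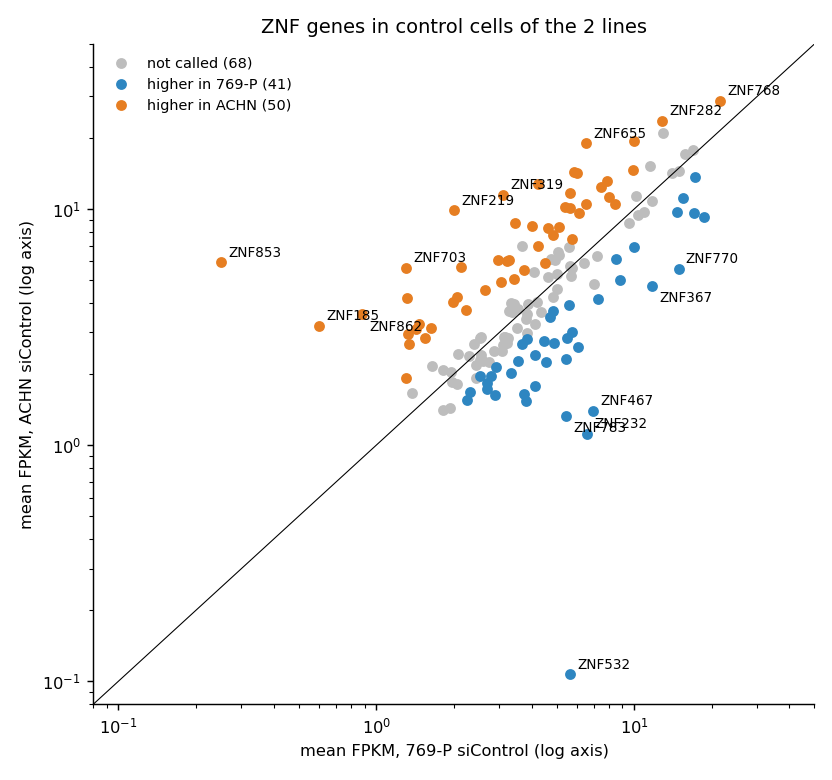
Mean FPKM of the 159 ZNF members in siControl libraries of 769-P (x axis) and ACHN (y axis), n = 3 each, on log axes; the line marks equal levels. Blue and orange mark the 41 members called higher in 769-P and the 50 called higher in ACHN without the block, and ZNF853 and ZNF532 lie farthest from the line.

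Neighbouring members did not always differ between the lines in the same direction. Chains of at least 4 members less than 500000 bases apart formed 6 groups, on chromosomes 7, 16 and 19. The longest holds 10 members at chr7:149069643-149867479, and most of its genes belong to 1 family of duplicated genes. Of these 10, 6 were called higher in ACHN controls and 2 in 769-P controls (limma without the block), against 29.3% and 32.2% of all genes. These calls include ZNF783, ZNF467 and ZNF862, which are members through a single line and had to differ in level. ZNF282, ZNF212, ZNF777, ZNF746 and ZNF786 differed by -0.68 to -0.98 on the log2 scale and ZNF862 by -1.84. Between them lie ZNF783, with 6.04, 5.65 and 4.66 FPKM in 769-P and 1.81, 0.972 and 1.21 in ACHN, and ZNF467, with 5.53, 7.53 and 7.76 against 1.32, 1.76 and 1.12. With siNUF2, 4 of the 10 rose in 769-P with the block and none in ACHN, where 13.6% and 7.14% of all genes rose. In the 7 members at chr19:57614233-58418327, which include ZNF274, all log2 differences were above 0 (0.12 to 1.03). Of these 7, 4 were called higher in 769-P without the block, 57.1% against 32.2% of all genes. The neighbours named here beside ZNF282, ZNF783, ZNF862 and ZNF467 were chosen for their position with values known.

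**Figure D5:**
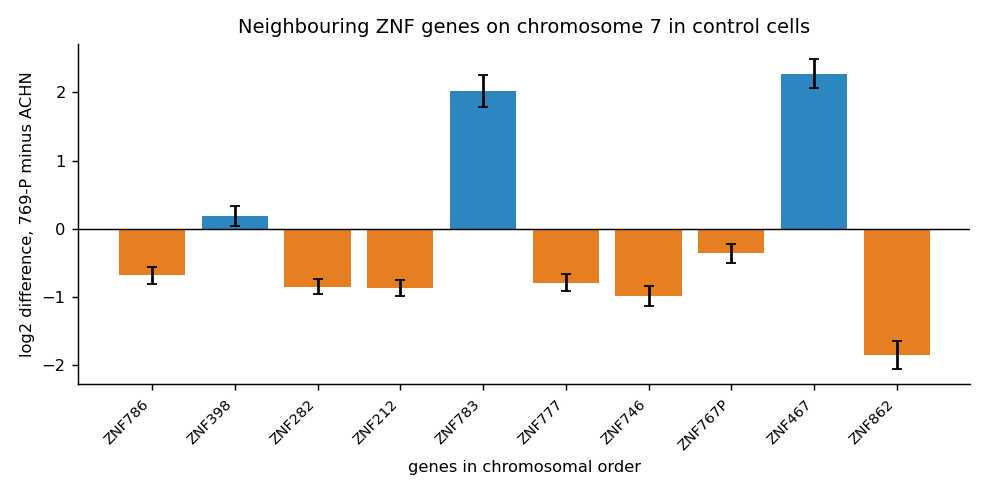
log2 difference between 769-P and ACHN siControl libraries (bars, 769-P minus ACHN; whiskers, SE of the limma fit, 3 libraries a line) for 10 neighbouring ZNF members on chromosome 7 in chromosomal order. ZNF783 and ZNF467 point up at 2.03 and 2.27 between neighbours that point down, with ZNF862 lowest at -1.84. ZNF783, ZNF467 and ZNF862 are members through a single line and had to differ in level.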

How the data were processed

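The values deposited are FPKM per gene and library. The authors trimmed reads with fastp, and the submitters' processing notes name HISAT2 2.0.5, featureCounts 1.5.0-p3 and hg38. Annotation and strand setting are not given in the sources used here. Reads recovered from the FPKM with exon lengths of GENCODE release 29 served for depth and for limma-voom; of values under 10 reads, 97.5% to 98.0% were whole within 0.05 reads. Genes that reached a scaled FPKM of 0.5 in fewer than 3 libraries were dropped, which left 158, 158 and 159 members for 769-P, ACHN and the controls.

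FPKM were scaled by a trimmed mean of log ratios (30% and 5% trimmed), and log2(FPKM + 0.1) was fitted over all genes with limma 3.58.1 in R 4.3.3 (lmFit, eBayes with trend), each line alone, with Benjamini-Hochberg adjustment. Deviations of same-numbered libraries correlated by 0.19 to 0.359 (769-P) and 0.46 to 0.735 (ACHN), so the numbers of the labels were taken as pairs.

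Named were the 6 lowest and 6 highest changes per comparison, filled with block calls, the 4 lowest interaction p-values, 6 shared changes, 5 highest levels, members next to the limit and listed members with known roles. Members and lists were chosen with earlier results of these data known. The fit was tested on simulated data, and alternatives are given at the end. Python 3.11.15 was used for sequences, which come from RefSeq.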

Additional observations from a re-analysis of the deposited data

Results flagged for a closer look

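All same-numbered pairs of one line went against all pairs of the other for 4 of the 159 members. These 4 were picked by the directions of the pairs, and the tests below use the same values. The share of all genes with this pattern was not counted. ZNF121 was lower in the 3 pairs of 769-P (log2 fold change -0.209) and higher in those of ACHN (0.307). ZNF92 changed by -0.0775 and 0.308, ZNF185 by -0.273 and 0.269, and ZNF462, the member with the most finger matches, by 0.214 and -0.0944. The interaction test by limma with the block gave an adjusted p of 0.0506, 0.242, 0.221 and 0.106, and 1.00 for each without the block, so none passed. By limma-voom with the block ZNF121 and ZNF462 passed (adjusted p = 0.00739 and 0.0376). Groups of 3 libraries were not searched for outlying samples.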

How the results depend on the processing

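In 769-P the counts of members called kept within 1.5 times of 15 higher and 6 lower under both other scalings, both pseudocounts and limma-voom. They were 40 and 12 with the replicate block, 53 and 22 with the block and limma-voom, and 9 and 2 with no filter, and 3 were lower in one fit of all 12 libraries. Leaving out one library gave 2 to 13 higher and 1 to 3 lower, with a median log2 fold change of 0.0362 to 0.0997. In ACHN the counts of 0 became 29 and 5 with the block, 34 and 11 with the block and limma-voom, and 6 higher in one fit of all 12 libraries (ZNF267, ZNF629, ZNF721, ZNF317, ZNF680 and ZNF354A). The difference in response went from 0 and 0 to 4 and 6 with the block and limma-voom. Between the control libraries the numbers did not pair (correlations of -0.0569 to 0.0429), and the block gave 39 and 46 in place of 41 and 50. The cause of these moves was not tested. Of 3673 values of single named members under the alternatives, 3457 stayed on their side of the threshold, 105 lost their call, 111 gained one and none changed sign while called. Depth limits the least covered members, and 3 libraries a group limit all of them.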
